A study of Arabidopsis thaliana with 24 samples.

Results

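The RNAs described here were well represented in the total RNA of Arabidopsis seedlings but depleted from the small polysomes when no sucrose was given. They were chosen by their values. The polysomal minus total log2 value, here called polysomal occupancy, had to be at or below -0.8 on average over the 6 cultures with sorbitol, and the mean log2 value of the 12 total RNA arrays had to be at or above 7. Of 30386 gene features on the arrays, 10718 reached the level limit and are called expressed, and 456 of these, from 447 loci, met both limits. The depletion in sorbitol is thus a description of the choice and was not tested. The members are called mRNAs only where they are nuclear and protein-coding, which held for 309 of the 456.

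The study asked how sucrose affects the translation of mRNAs in light and in darkness. Wild-type Col-0 seedlings were raised in liquid medium under continuous light, with an age of 10 days in the methods and 7 days in the labels. They were then kept for 6 h with sucrose or with equimolar sorbitol as the osmotic control, in light or in flasks wrapped against it. The groups were Control (light sorbitol), Sucrose treated (light sucrose), Dark treated (dark sorbitol) and Dark and Sucrose treated (dark sucrose), each with biological replicates 7, 8 and 9, and from each of the 12 cultures total RNA and small-polysome RNA were hybridized to AGRONOMICS1 tiling arrays. All samples were whole seedlings of the same genotype, in which fewer cells of a type and less RNA per cell cannot be told apart. Leaf genes were high, with mean log2 values of 12.10 for CA1 (carbonic anhydrase) and 12.16 for LHCB3, the root peroxidase gene PRX3 was at 8.28, and the pollen gene CYP703A2 was at 5.53, below the array medians of 5.92 to 6.06. Replicate 9 varied most, with residual SDs per array of 0.220 to 0.271 against 0.167 to 0.222 in the other replicates, and its polysomal array from dark sucrose had the highest value.

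A polysome is an mRNA with several ribosomes on it, and it is separated from free RNA on a density gradient. RNAs that no ribosome reads, such as small nucleolar RNAs, which guide the modification of ribosomal RNA in the nucleolus, are therefore scarce in polysomes by nature. Plastids and mitochondria translate their own mRNAs on ribosomes of a bacterial type, and their transfer RNAs are not translated. An mRNA can also be held out of polysomes for a time and be loaded later, which is one way by which plants adjust protein synthesis to their sugar supply. Occupancy below 0 means here that an RNA had a lower value in the small polysomes than in total RNA after both were brought to one scale, so it is relative to the other RNAs. Large polysomes were not used here, and no absolute share of ribosome-bound RNA can be given.

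The members were unevenly spread over the kinds of RNA. All 24 expressed small nucleolar or nuclear RNAs were among them, 23 snoRNAs and 1 U12-type spliceosomal snRNA. Of 102 other expressed non-coding RNAs 56 were members (54.9%), with shares of 40.3% for long non-coding RNAs (27 of 67), 85.7% for features annotated only as non-coding RNA (24 of 28) and 80% for microRNA precursors (4 of 5). Pseudogenes had 19 members of 68 (27.9%), mitochondria-encoded features 25 of 34 (73.5%) and plastid-encoded features 21 of 83 (25.3%). Of the nuclear protein-coding features, in contrast, 309 of 10381 (2.98%) were members, below the 4.25% of all expressed features. A further 2 members have no gene type in the reference table.

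**Figure D1:**
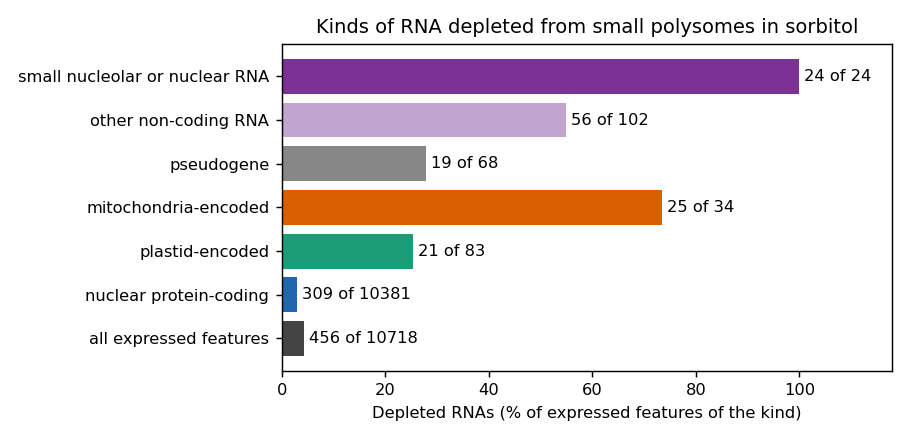
Share of the expressed features of each kind (percent, horizontal axis) that were depleted from the small polysomes in sorbitol, with the number of members and of expressed features at each bar. All 24 small nucleolar or nuclear RNAs are members, against 309 of 10381 nuclear protein-coding features.

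The depth of the depletion differed by kind as well. The median occupancy in sorbitol was -1.11 for all members, -3.27 for the small nucleolar or nuclear RNAs, -1.36 for other non-coding RNAs, -1.44 for plastid, -1.32 for mitochondrial and -1.16 for pseudogene members, and -1.03 for the protein-coding ones. Expressed features that are not members had a median of 0.14, and 6817 of these 10262 were above 0. Of the 33 members at or below -2.5, 20 were small nucleolar or nuclear RNAs, 6 other non-coding RNAs, 1 was mitochondrial and 6 were annotated as protein-coding. At the limits themselves, bHLH121, AT5G25560 and AT1G27695 lay just inside at -0.80 and AT1G19600, XBAT31 and AT1G56300 just outside, also at -0.80 when rounded. By level, AT4G00975, SKL1 and AT3G54880 lay just inside at 7.01, and AT3G04450 (6.99), ATMG00710 (6.95) and AT1G60525 (6.93) just outside.

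The most abundant snoRNA was SNOR30 (AT5G51174, which the array annotation places at 20795936 to 20796051 of chromosome 5), with a mean total level of 12.60. In the small polysomes of light sucrose its occupancy was -4.19, -3.88 and -3.70 in replicates 7, 8 and 9, and in dark sucrose -4.04, -4.04 and -3.79. These 6 cultures, which did not enter the occupancy limit, overlapped with the range of the sorbitol cultures from -4.14 to -3.62. The mean was -3.92 in light sucrose (SE 0.13, n = 3, adjusted p = 4.30e-13 from limma) and -3.96 in dark sucrose (SE 0.13, n = 3, adjusted p = 3.62e-13). The median polysomal value of the small nucleolar or nuclear RNAs was between 4.50 and 5.55 in the 12 cultures, under the array medians, while their median in total RNA was between 7.63 and 8.71. The snoRNA with the lowest occupancy, AT3G01316, ranged from -5.95 to -3.96 over the 12 cultures.

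The furthest depleted of all members was AT3G63052, which is annotated as protein-coding and spans only the stretch from 23298911 to 23299111 on chromosome 3. Its total level was 12.07 to 12.65 in all 12 cultures and its polysomal level 6.44 to 7.64. The occupancy was -5.37, -5.05 and -5.52 in light sorbitol, -4.85, -4.44 and -5.12 in light sucrose, -4.78, -5.86 and -5.30 in dark sorbitol and -4.90, -4.86 and -5.41 in dark sucrose, so that no group stood apart. In sucrose the mean was -4.80 in light (SE 0.20, n = 3, adjusted p = 1.26e-11 from limma) and -5.06 in darkness (SE 0.20, n = 3, adjusted p = 4.68e-12). AT2G35750 and AT1G29418, protein-coding members with low occupancies (-3.22 and -3.16), overlap loci of small RNAs in the reference table. This held for 5 of 309 protein-coding members (1.62%) and 49 of 10072 other expressed protein-coding features (0.486%). The others were AT1G72645 (-2.22), AT1G31835 (-2.03) and AT5G01350 (-1.13), and what part of their signal comes from the small RNAs was not tested.

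Among the other non-coding RNAs, GUT15, an unstable transcript without a long reading frame, was abundant at 11.86. Its occupancy lay between -2.24 and -1.93 in the 6 sorbitol cultures and between -2.35 and -1.83 in the 6 sucrose cultures, so that the treatments overlapped. It was below 0 in light sucrose by a mean of -2.08 (SE 0.15, n = 3, adjusted p = 1.11e-08 from limma) and in dark sucrose by -1.98 (SE 0.15, n = 3, adjusted p = 2.03e-08). TAS3, the precursor of small interfering RNAs that act on auxin response factors, was at -1.84 to -1.40 in sorbitol and at -1.53 to -0.78 in sucrose. The microRNA precursors were MIR168a (whose microRNA acts on AGO1), MIR824, MIR850 and MIR160b, with sorbitol means of -1.62, -1.17, -1.04 and -0.82. MIR850 lies within the non-coding locus AT4G13495, which has 2 member features of its own, so their signals are not independent.

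The plastid members consisted of 10 of 12 expressed tRNAs (83.3%), 10 of 68 protein-coding genes (14.7%) and ATCG00040, which is unnamed here. The tRNA gene trnF had the highest total level of all members (13.40), with an occupancy of -1.83, -1.80 and -1.69 in light sorbitol and -2.36, -1.98 and -1.96 in light sucrose. The protein-coding members included rpl32 (a protein of the plastid ribosome), psbM and psbN (named for photosystem II), and petN and petL, which encode small subunits of the cytochrome b6f complex. For petN the total level was 13.23 to 13.44 in all cultures, and the occupancy was -1.11, -1.08 and -0.93 in light sorbitol, -1.66, -1.28 and -1.48 in light sucrose, -1.42, -1.42 and -1.59 in dark sorbitol and -1.90, -1.70 and -1.64 in dark sucrose. The sucrose cultures thus lay below the sorbitol cultures in both light conditions, without an overlap. None of the 21 plastid members had a called change of occupancy with sucrose, however. For rpl32, the light sucrose values of -2.20, -2.45 and -2.31 overlapped with -2.28, -2.11 and -1.87 in light sorbitol.

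The 25 mitochondrial members are given by locus since the table used here does not name them. The lowest was ATMG00690, at -2.80, -2.89 and -2.52 in light sorbitol and -3.28, -3.10 and -2.75 in light sucrose, with a total level of 11.54. No mitochondrial member had a called change in any comparison of this report other than occupancy itself. A part of the mitochondrial genome is inserted into chromosome 2, and 3 members of 8 expressed loci there (AT2G07xxx) are uncertain because they share sequence with mitochondrial genes. Of 348 members with a span in the array's annotation, 55 (15.8%) overlap another locus, 40 of them on the opposite strand, against 12.3% of other expressed features.

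The protein-coding members were described by gene lists, most of them taken from words in gene symbols and synonyms. The cytosolic ribosomal proteins came from the study's list, and the clock and upstream reading frame genes were set by locus. Lists made from words are incomplete, and the member CIP8, a RING protein gene, is not on the ubiquitin list. Members and expressed features numbered 9 of 239 for transcription factors (3.77%), 7 of 163 for cytosolic ribosomal proteins (4.29%), 5 of 119 for vesicle transport (4.2%), 4 of 53 for photosystem and light-harvesting proteins (7.55%), 2 of 173 for ubiquitin and proteasome genes (1.16%) and 2 of 35 for lipid transfer or arabinogalactan proteins (5.71%). The kinase list had 6 of 353 (1.7%), of which CRK18 and CIPK7 are protein kinases, while TPK2 (thiamin pyrophosphokinase) and SKL1 (shikimate kinase-like, 3 features) carry the word for another reason. No splicing factor of 21 expressed, no translation factor of 28, no histone of 10, no respiratory chain or ATP synthase gene of 27, no nuclear gene of 13 for organellar ribosomal proteins, no clock gene of 8 and no gene of 20 with a known upstream reading frame was a member. The share of all nuclear protein-coding features was 2.98%, at which lists this short would hold few members or none. Nothing is therefore read from these absences. In the reference table the loci of the protein-coding members were shorter, with a median of 1962 bp (quartiles 1368 and 2636) against 2601 bp (1890 and 3599) for other expressed protein-coding genes. More than 1 transcript was listed for 47.6% and 49.5%.

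The cultures with sucrose did not enter the occupancy limit, although their total RNA arrays were among those behind the level limit. In light sucrose 274 of the 456 members had an occupancy below 0 at an adjusted p under 0.05 in limma, against 4.36% of all features and 6.45% of expressed features. In dark sucrose 365 did, against 7.56% of all and 7.08% of expressed features. The number for darkness was 233 without replicate 7 and 224 without replicate 8. The median of the members over all sucrose cultures was -0.85, and 245 of the 456 were again at or below -0.8, against 28 of 10262 other expressed features.

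**Figure D2:**
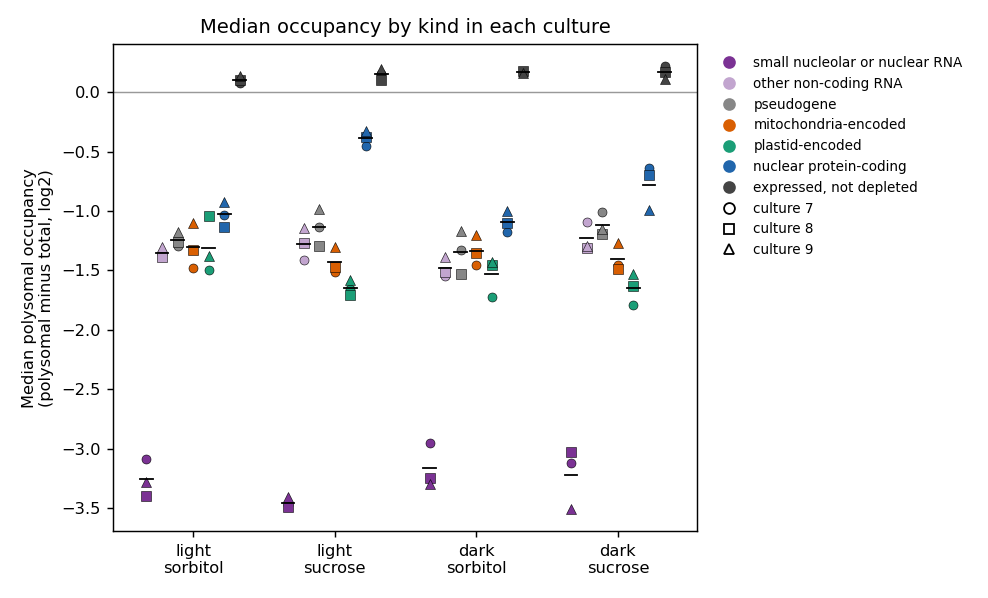
Median polysomal occupancy (log2, vertical axis) of each kind of member and of the expressed features that are not members, for each of the 12 cultures, with a line at the mean of the 3 replicates. The protein-coding members are at -0.45 to -0.33 in light sucrose and at -1.13 to -0.92 in light sorbitol, while the small nucleolar or nuclear RNAs are at or below -2.95 in every culture.

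The kinds differed in this respect. All 24 small nucleolar or nuclear RNAs and all 25 mitochondrial members were below 0 in both light and dark sucrose by the test, as were 54 of 56 other non-coding RNAs, 20 of 21 plastid and 16 of 19 pseudogene members. Of the 309 protein-coding members, 129 were below 0 in light sucrose, 224 in dark sucrose, 124 in both and 80 in neither. Among the 10072 other expressed protein-coding features the numbers were 346 in light and 294 in darkness. In light sucrose 70 members had a value above 0, all of them protein-coding, and 2 were called above 0, against 8.81% of all features. In dark sucrose 2 members had a value above 0. Over all sucrose cultures the median was -0.59 for the protein-coding members, -3.47 for the small nucleolar or nuclear RNAs, -1.27 for other non-coding RNAs, -1.13 for pseudogenes, -1.40 for mitochondrial and -1.61 for plastid members.

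Some mRNAs stayed low with sucrose. RAP2.4 encodes a transcription factor of the ERF family, and its occupancy was -1.51, -1.41 and -1.28 in light sorbitol, -1.69, -1.54 and -1.52 in light sucrose, -1.41, -1.77 and -1.34 in dark sorbitol and -1.73, -1.66 and -1.53 in dark sucrose. The sucrose values lay just below the sorbitol values in light, without a called change, and overlapped with them in darkness. The mean was -1.58 in light sucrose (SE 0.14, n = 3, adjusted p = 4.47e-07 from limma) and -1.64 in dark sucrose (adjusted p = 3.04e-07). MYB33 and SPL2 encode transcription factors whose mRNAs are targets of the microRNAs miR159 and miR156. For MYB33 all 12 values lay between -0.90 and -0.70. SPL2 was at -1.45, -1.56 and -1.12 in light sucrose and at -0.96, -0.94 and -0.79 in dark sucrose, both below 0 (adjusted p = 4.71e-05 and 0.00231 from limma). Of the 9 transcription factors, 5 were below 0 by the test in light sucrose and 8 in dark sucrose.

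RPP0A, a gene for the stalk protein P0 of the cytosolic ribosome, had the lowest occupancy among the ribosomal protein genes. It was at -1.86, -1.95 and -1.77 in light sorbitol, -2.67, -2.66 and -2.22 in light sucrose, -1.10, -1.46 and -1.25 in dark sorbitol and -1.77, -2.12 and -2.04 in dark sucrose. In each light condition the sucrose cultures were lower without an overlap, but neither fall of occupancy was called. Its total level rose with sucrose by 1.16 in light (SE 0.22, n = 3, adjusted p = 3.85e-04 from limma) and by 1.63 in darkness (SE 0.22, n = 3, adjusted p = 6.93e-06). The locus overlaps a long non-coding RNA (AT2G40008), so the source of the signal is uncertain. The other members of the list ranged in sorbitol from -1.35 (RPL41A) to -0.81 (RPS12A), and 3 of the 7 were below 0 by the test in light sucrose and 5 in dark sucrose.

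For the change with sucrose, the sorbitol arrays that set the limit are also the baseline, so that a rise cannot be read apart from the choice. The counts, and the p-values of single genes for this change, are given as a description. In light, occupancy rose for 53 members in limma (adjusted p under 0.05), all of them protein-coding, and fell for none. Of all features 0.346% rose, 0.0132% fell and 0.359% changed in either direction, and of expressed features 0.886% changed. No call was left without replicate 7 (0) or without replicate 8 (0), while leaving out replicate 9 gave 95. With the replicate number as a block it was 92, and without the polysomal array of replicate 9 from dark sucrose 87, an alternative chosen after seeing the data. A random block for the culture gave the most calls, 142, of which 141 were rises and 1 was a fall. The rises of the 53 were between 0.72 and 1.76 with a median of 1.24. Total RNA was lower with sucrose in 49 of them, beside 14210 of all 30386 features, and polysomal RNA higher in 45, beside 15584. By the test with a 2-fold limit, 12 fell in total RNA (4.63% of all features). In polysomal RNA 14 rose (4.79%) and 2 fell (4.34%), and 27 had no call in either. The 53 were picked for a rise in occupancy, so nothing is read from these counts.

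The furthest rise was that of BZIP9, a gene for a bZIP transcription factor (chromosome 5 from 8515200 to 8516669). In light its total RNA was at 9.65, 9.94 and 9.50 with sorbitol and at 7.29, 7.40 and 7.02 with sucrose, and its polysomal RNA at 8.14, 8.18 and 7.95 and at 7.52, 7.42 and 7.20. The groups did not overlap in either kind of RNA, and total RNA fell further. The occupancy thus went from -1.51, -1.76 and -1.56 to 0.24, 0.01 and 0.19, a rise of 1.76 (SE 0.30, n = 3, adjusted p = 0.00930 from limma). In dark sucrose it was -0.31, -0.68 and -0.89, above the dark sorbitol values of -1.57, -1.69 and -1.61.

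ASF1B, which encodes a histone chaperone, had a rise of similar size, with the change in its polysomal RNA. The total RNA in light was 7.44, 7.84 and 7.80 with sorbitol and 7.66, 7.95 and 7.39 with sucrose, which overlap, while the polysomal RNA was 6.64, 6.59 and 6.74 with sorbitol and 8.21, 8.43 and 8.21 with sucrose. Its occupancy in light sucrose, at 0.55, 0.48 and 0.82, was above that of BZIP9. The polysomal rise was 1.63 (SE 0.21, n = 3, adjusted p = 5.56e-06 from limma) and the occupancy rise 1.66 (SE 0.30, n = 3, adjusted p = 0.0152). In dark sucrose its occupancy was 0.48, 0.02 and -0.98, with replicate 9 within the range of dark sorbitol (-1.21 to -0.84).

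**Figure D3:**
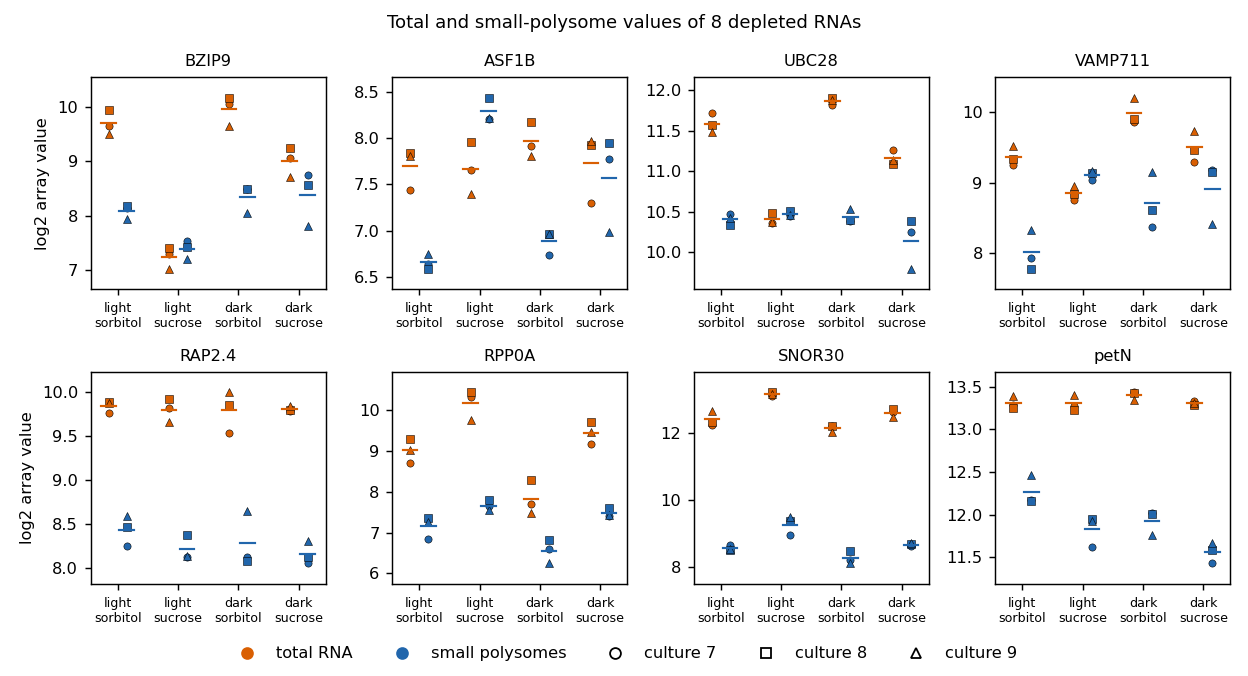
Total RNA and small-polysome RNA (log2 array value, vertical axis) of 8 members in each of the 12 cultures, with the mean of the 3 replicates as a line. The 2 kinds of RNA lie close together in light sucrose for BZIP9, UBC28 and VAMP711 and cross for ASF1B, and they stay apart for RAP2.4, RPP0A, SNOR30 and petN.

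By list, the calls included 2 of 2 ubiquitin, 4 of 5 vesicle, 2 of 9 transcription factor and 1 of 7 ribosomal protein members, but none of 6 in the kinase list, of 4 light-harvesting or of 2 lipid transfer or arabinogalactan members. Over all members the share was 11.6%, and among other expressed features of the ubiquitin and vesicle lists 2 of 171 and 3 of 114 were called. Members and other features were split by the sorbitol arrays that are also the baseline here, so nothing is read from this contrast. None of these calls held without replicate 7 or without replicate 8. UBC28 and UBC8 encode ubiquitin-conjugating enzymes. UBC28 was at -1.24, -1.23 and -1.06 in light sorbitol and at 0.09, 0.02 and 0.08 in light sucrose, a rise of 1.24 (SE 0.17, n = 3, adjusted p = 0.00147 from limma), with a fall of total RNA by 1.18 and polysomal RNA between 10.34 and 10.51 throughout in light. VAMP711 and VAMP724 encode SNARE proteins of the fusing vesicle. VAMP711 went from -1.32, -1.56 and -1.20 to 0.28, 0.29 and 0.22, a rise of 1.62 (SE 0.29, n = 3, adjusted p = 0.0124). RABA5E, a Rab GTPase gene, went from -0.97, -1.45 and -1.09 to 0.04, 0.37 and 0.45, a rise of 1.46 (SE 0.20, n = 3, adjusted p = 0.00200), with total RNA at 8.35 to 8.63 in all light cultures. The ARF GTPase gene ARFA1E rose by 1.15 (SE 0.17, adjusted p = 0.00238) and VAMP724 by 1.21 (SE 0.22, adjusted p = 0.0152). Both groups of replicates were apart in each of these genes.

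Genes of other functions were called too, several of them picked after their values were seen. The light sorbitol arrays that are the baseline here also had a part in the choice of members. None of these calls held without replicate 7 or without replicate 8, so the p-values are a description only. RPS15A, a ribosomal protein gene, rose by 1.46 (SE 0.23, n = 3, adjusted p = 0.00553 from limma), the only call among the 7 ribosomal protein members. RPS12A had 1.15 (adjusted p = 0.0679), with values from -0.76 to -0.58 in light sorbitol and from 0.42 to 0.57 in light sucrose. ACT8, which encodes an actin, rose by 1.11 (SE 0.16, adjusted p = 0.00260), TCTP, the gene of the translationally controlled tumour protein, by 0.91 (SE 0.15, adjusted p = 0.00768), and TIM17-2, which takes part in protein import into mitochondria, by 0.88 (SE 0.15, adjusted p = 0.0113). MTN1, a gene of methionine salvage, rose by 1.38 (SE 0.23, adjusted p = 0.00740) and CIP8, whose RING protein binds COP1, by 1.25 (SE 0.16, adjusted p = 0.00147). FAD2, the oleate desaturase gene and at 13.14 the most abundant mRNA of the members, had a difference of 0.64 (SE 0.16, adjusted p = 0.103). Its values of -0.35 to -0.16 in light sucrose did not overlap with those of -0.95 to -0.87 in light sorbitol.

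**Figure D4:**
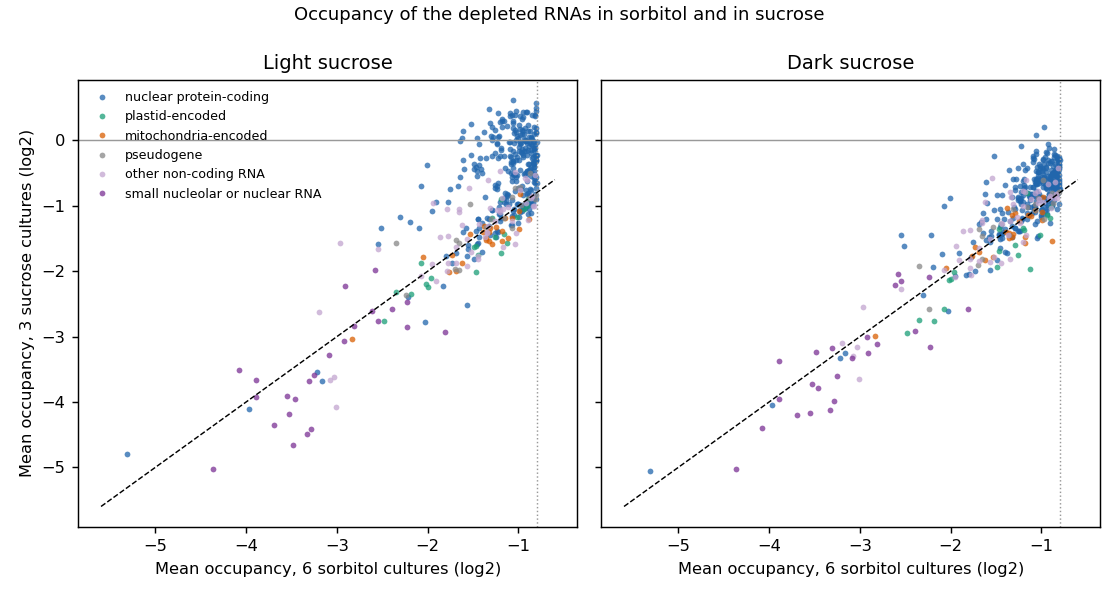
Mean occupancy of each member in the 3 sucrose cultures in light (left) or darkness (right) against the mean of the 6 sorbitol cultures (both log2), with colours for the kinds, a dashed line at equality and a dotted line at the limit of -0.8. In light, 70 protein-coding members lie above 0 with sucrose and in darkness 2, while the other kinds lie near the line of equality.

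A list whose occupancy limit used none of the arrays of the light comparison was formed from the dark sorbitol cultures alone, with the same level limit. It had 476 features, 423 of which are also members. In light, 48 of the 476 rose in occupancy (10.1%) against 0.346% of all features, all of the 48 protein-coding, 47 of them also members. Of expressed features 0.886% changed in either direction. The list is not independent of the light comparison, since its level limit used the light total RNA arrays. Dark and light sorbitol arrays of one replicate number also deviated together (correlations from 0.0147 to 0.366). Since no feature at all was called without replicate 7 or without replicate 8, none of the 48 calls held when either was left out. The median difference was 0.61 for its 315 protein-coding features and -0.12 for the other 161. In the same way, 454 features were chosen in light sorbitol alone, and none of them was called in darkness (0 of 30386 features, 0%). Of the 454, 87 had an unadjusted p under 0.05, beside 1325 of all 30386 features, and the median difference of the 309 protein-coding ones was 0.30.

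In darkness no member had a called change of occupancy with sucrose in limma, nor had any other feature (0%). At an unadjusted p under 0.05 there were 96 members, beside 1325 of all 30386 features. The median was 0.32 for the protein-coding members and -0.02 for the other expressed protein-coding features. Without replicate 9 the count was 11, as it was without the polysomal array of that replicate from dark sucrose alone. A random block for the culture gave 8. The 53 members with a call in light all had a higher value with sucrose in darkness too, beside 15666 of all 30386 features. Their median difference was 0.61, and replicate 9 was the lowest of the dark sucrose cultures in 52 of them. The dark sorbitol cultures had a part in the choice of members, so these higher values cannot be read apart from it.

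Occupancy was next compared between light and dark sucrose, which uses no sorbitol array. No feature was called in limma (0% of 30386), and 129 members had an unadjusted p under 0.05, of 1425 among all features. With the replicate number as a block 5 members were called, and a random block for the culture gave 28. The protein-coding members had a median difference of 0.31 (quartiles 0.05 and 0.61), with 239 of 309 higher in light. For the other expressed protein-coding features the median was -0.03, with 4214 of 10072 higher, and of all 30386 features 15401 were higher. Over all members the median was 0.18, and it was 0.10 without replicate 9. UBC28 had the smallest adjusted p of the genes named above, with 0.09, 0.02 and 0.08 in light sucrose against -1.02, -0.70 and -1.34 in dark sucrose (difference 1.08, SE 0.17, n = 3, adjusted p = 0.0746). LHB1B1, which encodes a light-harvesting protein of photosystem II, had 0.13, 0.28 and -0.02 in light and -1.09, -1.64 and -2.44 in darkness (difference 1.85, SE 0.39, n = 3, adjusted p = 0.206). Its near-identical relatives CAB1 and CAB3 may share its probes, so the values of LHB1B1, CAB1 and CAB3 are all uncertain.

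The sucrose effects on occupancy in light and in darkness were then set against each other. No feature was called (0%), and 39 members had an unadjusted p under 0.05, beside 792 of all 30386 features. The median was 0.31 for the protein-coding members, with 231 of 309 above 0. For the other expressed protein-coding features it was 0.02, with 5494 of 10072 above 0. Over all members the median was 0.13, and it was 0.03 without replicate 9. No alternative gave a call for a member. The occupancy in dark against light sorbitol had no call either (0%). At an unadjusted p under 0.05 there were 33 members, beside 1276 of all 30386 features. The median was -0.07 for the members and 0.06 for the other expressed features. A random block for the culture gave 1 call.

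The levels of the members changed with sucrose as well, again with sorbitol arrays that had a part in the choice. The total RNA arrays of the sucrose cultures also entered the level limit. In total RNA 72 members were called in light (adjusted p under 0.05 and more than 2-fold), 10 up and 62 down, beside 3.73% and 4.63% of all features (8.36% in all). This was 15.8% of the members, the same share as the 15.8% of expressed features. In darkness there were 99, 8 up and 91 down, beside 5.47% and 5.62% (11.1%), or 21.7% of the members and 20.6% of expressed features. In polysomal RNA 69 were called in light, 39 up and 30 down, beside 4.79% and 4.34% (9.14%), and 66 in darkness, 8 up and 58 down, beside 5.48% and 5.47% (11%). Of expressed features 16.8% were called in light and 19.2% in darkness, above the shares of the members (69 and 66 of 456). Protein-coding members made up 51 of the 62 falls in light and 72 of the 91 in darkness. The non-coding RNA AT3G13061 fell by 3.37 in light and by 3.88 in darkness (SE 0.16 each). AGP16, an arabinogalactan protein gene, had a called rise in darkness of 1.93 (SE 0.18, n = 3, adjusted p = 5.61e-08 from limma).

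The small nucleolar or nuclear RNAs went the other way in total RNA. Their median total level was 7.81, 7.96 and 7.98 in light sorbitol and 8.69, 8.71 and 8.69 in light sucrose, without an overlap. It was 7.63, 7.81 and 7.94 in dark sorbitol and 8.03, 8.04 and 8.26 in dark sucrose. With sucrose in light 22 of the 24 were higher (median 0.67), 6 rose by the test and 11 had an unadjusted p under 0.05. Of all 30386 features 16176 were higher, 3.73% rose by the test and 11038 had an unadjusted p under 0.05. Only 24 of 53 such RNAs passed the level limit, a mean that included the sucrose arrays. A rise with sucrose can thus not be read apart from the choice. In darkness 18 were higher (median 0.41) and 2 rose by the test, beside 15181 and 5.47% of all 30386 features. SNOR30 was at 12.26, 12.35 and 12.67 in light sorbitol and at 13.13, 13.24 and 13.19 in light sucrose, a difference of 0.76 (SE 0.13, n = 3, adjusted p = 1.82e-04) that is under 2-fold. No plastid or mitochondrial member changed in total RNA by the test.

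The sucrose effect on the level differed between light and darkness for 50 members in total RNA (adjusted p under 0.05), 37 with the higher value in light and 13 with the lower, against 4.09% and 4.85% of all features (8.94% in either direction). The 50 were 11% of the members, below the 15.7% of expressed features. In polysomal RNA it differed for 84 members, 75 with the higher value in light and 9 with the lower, against 6.33% and 5.21% (11.5%), or 18.4% of the members, below the 21.1% of expressed features. These contrasts use all sorbitol arrays, which enter with opposite signs. For total RNA the count was 3 if either replicate 7 or replicate 8 was left out, 78 without replicate 9 and 79 with the replicate number as a block. For polysomal RNA it was 8 without replicate 7, 10 without replicate 8, 48 when the fit held only polysomal arrays and 54 without the replicate 9 array from dark sucrose. The protein-coding members had a median of 0.42 in polysomal RNA against 0.14 for the other expressed protein-coding features.

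**Figure D5:**
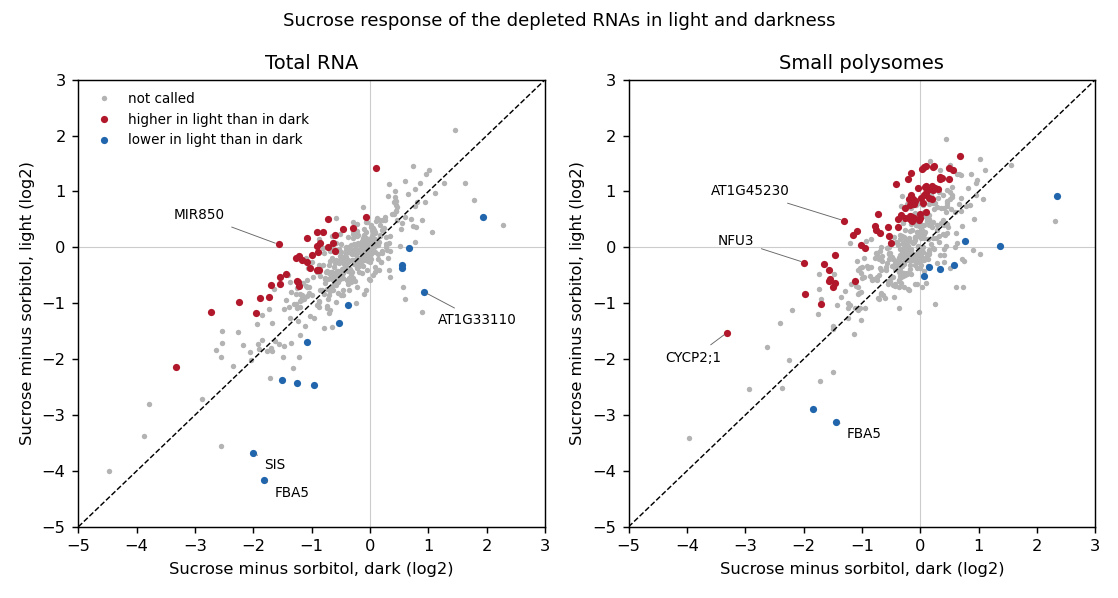
Change with sucrose in light (vertical axis) against that in darkness (horizontal axis), both log2, for each member in total RNA (left) and small polysomes (right), with a dashed line at equality. Coloured points are the 50 and 84 members whose changes differed in the test, and 75 of the 84 in the small polysomes lie above the line.

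FBA5, a gene for a fructose-bisphosphate aldolase, had the largest such difference in total RNA. It was at 9.59, 10.29 and 9.24 in light sorbitol and 5.36, 5.69 and 5.57 in light sucrose, and at 8.05, 8.42 and 6.96 in dark sorbitol and 6.11, 6.54 and 5.30 in dark sucrose. The fall was 4.17 in light and 1.83 in darkness on the log2 scale, so that the change in light minus that in darkness was -2.34 (SE 0.49, adjusted p = 0.00428 from limma). CYCP2;1, a P-type cyclin gene, fell further in darkness, from 8.68, 9.04 and 8.35 to 5.41, 5.67 and 5.04 in polysomal RNA, than in light, from 7.24 to 8.07 with sorbitol to 6.12, 6.26 and 6.35. The difference between the changes was 1.79 (SE 0.34, adjusted p = 0.00157). Among the genes with an occupancy call in light, RABA5E had a difference of 1.23 in polysomal RNA (SE 0.20, adjusted p = 5.88e-04), and the ribosomal protein gene RPS12A, without that call, had 1.22 (SE 0.27, adjusted p = 0.00504).

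Darkness alone, with sorbitol in both groups, changed the total RNA of 26 members by the test with a 2-fold limit, 23 up against 0.454% of all features and 3 down against 1.03% (1.49% in all, 2.57% of expressed features). Without replicate 8 the count was 14. In polysomal RNA it changed 8, 6 up against 0.425% and 2 down against 0.951% (1.38% in all, 2.23% of expressed features), with 1 without replicate 8 and 13 without replicate 9. The furthest rise in total RNA was that of SAG21, a senescence-associated gene, from 11.01, 10.74 and 11.55 to 13.07, 13.25 and 13.38, which did not overlap (2.13, SE 0.32, n = 3, adjusted p = 2.54e-04). WRKY45, a transcription factor gene, rose by 1.40 (SE 0.40, n = 3, adjusted p = 0.0322). The falls were those of FBA5 (-1.90), RPP0A (-1.19) and AT1G78450 (-1.12). The median change of the protein-coding members was 0.33 against 0.03 for the other expressed protein-coding features.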

How the data were processed

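Total RNA and small-polysome RNA of 12 cultures (3 replicates of 4 treatments) were compared on 24 arrays. The authors deposited log2 values made with RMA, which corrects for background, normalizes the arrays to each other and combines the probes of a gene into 1 value. Normalization sets all arrays to one scale, so changes shared by most RNAs are not seen. The deposited values (0.83 to 14.49) were used without array controls and without a filter. The number of arrays limits the precision.

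All arrays and all 30386 features entered a single linear fit of 8 group means in R 4.3.3 with limma 3.58.1 (3.57 prior degrees of freedom), with Benjamini-Hochberg adjustment within each comparison. All adjusted p-values are from limma. A change of level needed an adjusted p under 0.05 and a size above 2-fold to be called, an occupancy or a difference between light and darkness an adjusted p under 0.05 alone. The SE is that of the fit. Python 3.11.15 with pandas 2.3.3 and matplotlib 3.10.9 gave summaries and figures. The tests of occupancy in light sucrose and of light against dark sucrose were tried on simulated data with known changes. The simulated noise was independent between arrays, so deviations shared within a culture or a replicate number were not covered.

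Kinds and names came from a RefSeq gene table (TAIR10.1), in which 29886 features (98.4%) were named, and 81 of 84 plastid features were matched by start and end. The array's own build is not given in the sources used here. No column of another sample was present (0 unused).

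The members, the gene lists and the tests were chosen with earlier results of these data known. Genes were named by rule, as those with the lowest and highest occupancy, the highest level, the values next to the limits, the largest differences in each test and the lowest members of each kind and list, together with genes the study names. GUT15, TAS3, MYB33, SPL2, the vesicle genes, CIP8, MTN1, TIM17-2, ACT8, TCTP, SAG21, WRKY45, AGP16, AT3G13061 and the loci overlapping small RNAs were partly or wholly picked after their values were seen.

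Arrays of one replicate number deviated together from their group means in sucrose comparisons (correlations from 0.109 to 0.387 in every pair), and in the dark control from 0.0147 to 0.296 in total RNA. The total and polysomal array of one culture had correlations from 0.211 to 0.598. The alternatives thus included a replicate block and a random block for the culture (estimated correlation 0.417), beside other arrays in the fit, another variance prior, other normalizations, a filter on low values, other limits and leaving out replicates. Protein lengths and sequences were not used here.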

Additional observations from a re-analysis of the deposited data

Results flagged for a closer look

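The change with sucrose differed between light and darkness, by a test of the difference itself, for 50 members in total RNA and 84 in polysomal RNA. These were 11% and 18.4% of the members, below the 15.7% and 21.1% of expressed features. Without replicate 7 the counts were 3 and 8, and without replicate 8 they were 3 and 10. Differences are given as the change in light minus the change in darkness on the log2 scale, and no explanation was tested.

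In total RNA the largest were those of FBA5 (-2.34), AT1G33110 (-1.72), SIS (-1.68) and the microRNA precursor MIR850 (1.62). AT1G33110 went from 7.82, 8.34 and 8.07 to 7.02, 7.30 and 7.53 with sucrose in light and from 8.52, 8.61 and 8.25 to 9.08, 9.20 and 9.88 in darkness, so that its changes had opposite signs (-0.80 and 0.92) and no group overlapped with its control. SIS, named for its induction by salt, fell by 3.68 in light and also in darkness, to 8.90, 9.06 and 9.83 from 11.16, 11.22 and 11.41, and its lowest values of 6.84, 6.27 and 6.43 were those of light sucrose. MIR850 was at 8.77 to 9.15 in both light groups and at 6.89, 7.56 and 6.93 in dark sucrose, against 8.58, 8.91 and 8.59 in dark sorbitol.

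In polysomal RNA the largest were those of CYCP2;1 (1.79), AT1G45230 (1.78), NFU3 (1.71) and FBA5 (-1.68). AT1G45230 was at 7.79, 7.92 and 8.49 in light sorbitol and 8.53, 8.66 and 8.44 in light sucrose, which overlap, but at 8.26, 8.50 and 8.29 in dark sorbitol and 7.12, 7.46 and 6.56 in dark sucrose. NFU3, a scaffold gene for iron-sulphur clusters in plastids, was at 8.33 to 9.17 in light and fell in darkness from 8.84, 8.95 and 8.46 to 6.85, 7.04 and 6.40. The total RNA of NFU3 fell in both conditions (-1.70 in light and -2.53 in darkness).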

How the results depend on the processing

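Of 179 counts obtained with other settings, 144 were within 1.5 times the reported count and 35 were not. The causes were not tested except where a setting left fewer samples or features. With the replicate number as a block, 5 members differed in occupancy between light and dark sucrose, 79 in the light dependence of total RNA, and 92 rose in occupancy in light. This block moved no other count by more than 1.5 times. With the culture as a random block the counts were 28 for light against dark sucrose, 1 for dark against light sorbitol, 142 for the occupancy change in light and 8 for that in darkness. A fit on only the groups compared gave 48 for the light dependence of polysomal RNA, and it has no separate value for the light dependence of occupancy, which uses all groups. For light against dark sucrose, an intensity trend with a robust prior gave 1, quantile normalization 3, median centring 1 and testing of expressed features alone 6. Quantile normalization gave 1 for the occupancy change in darkness, and testing of expressed features alone gave 87 for that in light. Without the polysomal replicate 9 array of dark sucrose, a setting chosen after seeing the data, the counts were 1 for light against dark sucrose, 54 for the light dependence of polysomal RNA, 87 for the occupancy change in light and 11 in darkness. Each replicate, or that array, left out in turn gave ranges of 192 to 280 for occupancy below 0 in light sucrose, 224 to 354 in dark sucrose, 0 to 95 and 0 to 11 for the occupancy changes in light and darkness, 3 to 78 and 8 to 92 for the light dependence of total and polysomal RNA, 14 to 26 and 1 to 13 for total and polysomal RNA in the dark control, and 426 to 510 for the number of members. An occupancy limit of -0.6 gave 709 members and one of -1 gave 293, and a level limit of 8 gave 291. The median polysomal value of the snoRNAs lies below the array medians in every culture, so low occupancies rest on dim signals for many of them, though not for SNOR30.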

Other observations

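Of the 4 photosystem and light-harvesting members, 3 had a lower mean occupancy in dark than in light sorbitol (LHB1B1, LHCB3 and CAB3, with differences of -1.13, -0.67 and -0.39), while CAB1 had a higher one (0.35). None of these differences was called. LHCB3 was at -0.46, -0.65 and -0.71 in light sorbitol and at -1.15, -1.19 and -1.48 in dark sorbitol, and with sucrose at 0.11, 0.04 and 0.13 in light and -0.81, -1.09 and -1.47 in darkness. LHB1B1 was at -0.67, -0.84 and -0.94 in light sorbitol and at -1.75, -2.00 and -2.08 in dark sorbitol. The occupancy of neither gene overlapped between light and darkness, with either sugar, but neither was called in a test of occupancy in light against darkness. Both were below 0 by the test in dark sucrose, at -1.72 for LHB1B1 and -1.12 for LHCB3 (adjusted p = 2.81e-04 and 0.0175 from limma), as was CAB1 at -1.20 (adjusted p = 0.00652). The polysomal RNA of LHB1B1 was lower in dark than in light sorbitol by the test (-1.05, SE 0.28, n = 3, adjusted p = 0.0165 from limma), at 0.08 for total RNA (adjusted p = 0.911).

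AGP26 and AGP16, genes for arabinogalactan proteins of the cell surface, had changes with sucrose of opposite light dependence. In polysomal RNA the change in light minus that in darkness was above 0 for AGP26 (SE 0.23, adjusted p = 3.11e-04 from limma) and -1.44 for AGP16 (SE 0.26, adjusted p = 0.00105). AGP16 was at 10.08, 10.03 and 10.38 in dark sorbitol and at 12.31, 12.33 and 12.90 in dark sucrose. AGP26 was at 9.29, 9.12 and 9.12 in light sorbitol and at 10.40, 10.82 and 10.31 in light sucrose.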
